A study of Mus musculus with 8 samples.

Results

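The peaks called in chondrocytes labelled Jmjd3-cKO were set against the peaks called in wild-type chondrocytes, with 1 chromatin immunoprecipitation (ChIP) library and 1 input library for each genotype. These are 4 of the 8 samples of the series and 2 of its 4 deposited peak lists, and they were taken by their genotype labels, so that every peak of both lists is a member. Both genotypes are mouse chondrocytes from cartilage that were kept in DMEM medium with serum, and the antibody is labelled as directed against H3K27me3 (histone H3 trimethylated at lysine 27). The label cKO is read as a conditional knockout of Jmjd3. The Cre driver, the number of animals pooled, their age and their sex are absent from the sources used here. The library titles carry different prefixes for the 2 genotypes, so that a batch effect cannot be told apart from genotype. With n = 1 per genotype there is no replicate error, no test was made, and every difference below compares 2 libraries.

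H3K27me3 is written by Polycomb repressive complex 2, whose catalytic subunit is Ezh2, and it is erased by the demethylases Jmjd3 (gene Kdm6b) and Utx (gene Kdm6a). It is known from many cell types as a mark of silent genes, among them Hox genes and regulators of other lineages, where it often forms wide domains over CpG-rich promoters. In cartilage, Sox9 drives chondrocyte fate and matrix genes such as Col2a1 and Acan, while Runx2 and Ihh act in the later, hypertrophic steps.

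The Jmjd3-cKO list held 27013 peaks over 41.4 Mb and the wild-type list 28057 peaks over 40.5 Mb, from 25655346 Jmjd3-cKO and 29222251 wild-type ChIP fragments after removal of duplicates. The inputs held 16645811 fragments in Jmjd3-cKO and 16599532 in wild type. Fold enrichment, the authors' ratio of a peak over its own input, had a higher scale in the Jmjd3-cKO list. The median over marked genes, those with a peak within 2 kb of either gene end, was 7.96 in Jmjd3-cKO and 6.41 in wild type. Peaks and genes were therefore compared by their rank within their own list, as a percentile with 100 for the highest. The peaks lay at many genes where the labelled mark is not known to lie. Over all protein-coding genes 13781 counted as marked in Jmjd3-cKO (63%) and 13635 in wild type (62.3%). Of 30 housekeeping genes, 29 counted as marked in Jmjd3-cKO and 29 in wild type, and of 99 ribosomal protein genes 91 were marked in each list, against 28 in Jmjd3-cKO and 19 in wild type of 45 transcription factors of other lineages. Of 39 Hox genes, a known place of the mark, 34 were marked in Jmjd3-cKO (87.2%) and 29 in wild type (74.4%). Peaks are therefore named here as peaks of libraries labelled H3K27me3, and a marked gene is not read as a silent one. Of the chondrocyte markers Sox9, Col2a1, Acan, Col9a1, Col11a1 and Matn1, 6 of 6 were marked in both genotypes. Of the myogenic markers Myod1, Myf5, Myog and Des, 0 of 4 were marked in either. Marked in both lists were 1 of 4 endothelial markers, 2 of 4 haematopoietic and 2 of 4 tendon and synovium markers, and of 3 adipogenic markers 2 were marked in Jmjd3-cKO and 1 in wild type. Pecam1, Tie1, Cdh5, Ptprc, Csf1r, Tnmd, Prg4 and Fabp4 had no peak within 2 kb of a gene end in either list. As a marked gene is not read as silent or active, these counts do not show which cell types were present.

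The promoters shown here let a reader see what the peaks cover at genes to which the results return. They are RefSeq sequences of GRCm38.p6, 5′ to 3′ on the gene's strand, each with 250 bases before and 50 after the start, and capitals mark each CG. Sox21, a neural transcription factor gene (chr14:118236981-118237280, minus strand), and Wnt1, a ligand gene (chr15:98789607-98789906, plus strand), stand for peaks that were wider in Jmjd3-cKO. The Jmjd3-cKO peak covered 300 of 300 bases at Sox21 and the wild-type peak 15, and at Wnt1 the counts were 107 in Jmjd3-cKO and 0 in wild type.
Sox21: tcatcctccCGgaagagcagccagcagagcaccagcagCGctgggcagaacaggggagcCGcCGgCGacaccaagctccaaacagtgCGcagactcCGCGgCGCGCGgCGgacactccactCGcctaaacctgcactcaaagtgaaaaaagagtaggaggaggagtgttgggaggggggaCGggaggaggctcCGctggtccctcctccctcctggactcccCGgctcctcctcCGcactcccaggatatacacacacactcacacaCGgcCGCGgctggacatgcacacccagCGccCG
Wnt1: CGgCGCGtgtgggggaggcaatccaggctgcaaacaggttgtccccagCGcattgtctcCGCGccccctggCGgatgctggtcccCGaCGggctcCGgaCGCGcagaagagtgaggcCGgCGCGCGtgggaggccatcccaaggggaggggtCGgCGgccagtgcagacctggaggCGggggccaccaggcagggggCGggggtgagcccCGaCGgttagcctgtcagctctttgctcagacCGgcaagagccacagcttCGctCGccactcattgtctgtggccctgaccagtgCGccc
Aldh1a2, which encodes an enzyme of retinoic acid synthesis (chr9:71215539-71215838, plus strand), had 300 bases under a Jmjd3-cKO peak and 0 under a wild-type peak, and it is the richest in CG of the promoters shown, with 50. Zfp33b, a zinc finger gene (chr5:104571422-104571721, plus strand), had 0 bases under a Jmjd3-cKO peak and 300 under a wild-type peak, with 9 CG.
Aldh1a2: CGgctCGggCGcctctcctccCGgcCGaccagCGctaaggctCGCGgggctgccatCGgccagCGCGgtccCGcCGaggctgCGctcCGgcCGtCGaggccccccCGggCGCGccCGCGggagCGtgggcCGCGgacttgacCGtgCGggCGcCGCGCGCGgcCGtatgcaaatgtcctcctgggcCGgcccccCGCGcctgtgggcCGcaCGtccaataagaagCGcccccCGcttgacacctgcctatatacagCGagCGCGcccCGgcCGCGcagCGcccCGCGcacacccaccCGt
Zfp33b: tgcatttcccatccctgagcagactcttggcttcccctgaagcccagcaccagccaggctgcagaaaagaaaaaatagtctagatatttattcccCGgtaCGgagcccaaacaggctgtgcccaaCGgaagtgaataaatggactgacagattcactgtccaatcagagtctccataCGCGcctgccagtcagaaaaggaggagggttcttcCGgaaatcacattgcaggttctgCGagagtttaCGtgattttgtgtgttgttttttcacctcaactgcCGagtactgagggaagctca
Pelo, a gene for a factor that rescues stalled ribosomes (chr13:115090109-115090408, minus strand), and Psmd9, a proteasome assembly gene (chr5:123227940-123228239, plus strand), were covered in both lists and moved far in rank, Pelo up and Psmd9 down in Jmjd3-cKO. Pelo had 300 bases under the peak in each list, with 36 CG, and Psmd9 had 300 bases in Jmjd3-cKO and 242 in wild type, with 12 CG.
Pelo: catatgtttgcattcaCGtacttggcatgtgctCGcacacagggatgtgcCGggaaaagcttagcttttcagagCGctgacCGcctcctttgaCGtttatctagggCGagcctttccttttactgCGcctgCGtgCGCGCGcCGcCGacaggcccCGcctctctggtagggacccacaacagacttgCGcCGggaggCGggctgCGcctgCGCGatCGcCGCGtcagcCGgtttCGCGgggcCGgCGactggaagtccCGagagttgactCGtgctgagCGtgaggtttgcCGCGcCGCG
Psmd9: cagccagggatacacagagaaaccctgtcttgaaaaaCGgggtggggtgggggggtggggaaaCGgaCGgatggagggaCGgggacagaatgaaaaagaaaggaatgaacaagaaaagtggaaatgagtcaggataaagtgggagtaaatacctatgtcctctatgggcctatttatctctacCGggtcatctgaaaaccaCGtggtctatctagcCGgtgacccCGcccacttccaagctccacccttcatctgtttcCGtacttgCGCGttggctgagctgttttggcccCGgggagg

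Most peaks had a partner in the other list, and those without one were short and weak. On chromosomes 1 to 19, X and Y, 20340 peaks of each list overlapped exactly 1 peak of the other by at least 1 bp, which is 75.3% of the Jmjd3-cKO peaks (95% Wilson interval 74.8 to 75.8%) and 72.5% of the wild-type peaks (72.0 to 73.0%). These intervals cover counting error only. Another 341 Jmjd3-cKO peaks each lay over several wild-type peaks, 705 in all, and 347 Jmjd3-cKO peaks lay within 172 wild-type peaks. Joining was thus more frequent than splitting in the Jmjd3-cKO list. The remaining 5948 Jmjd3-cKO peaks (22.0%) and 6802 wild-type peaks (24.2%) had no partner.

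The unpaired peaks sat mostly inside genes and away from promoters. Their median length was 446 bp in Jmjd3-cKO and 435 bp in wild type, and their median rank percentile was 19.9 in Jmjd3-cKO and 23.5 in wild type. A transcription start lay under 3.73% of them in Jmjd3-cKO and 2.01% in wild type, against 46.2% in Jmjd3-cKO and 45.8% in wild type for the one-to-one pairs. The strongest unpaired Jmjd3-cKO peak reached the 70.1 percentile of its list, 51788 bp from Pls3 on chromosome X. Among the wild-type peaks the strongest reached the 99.5 percentile. It is a peak of 602 bp with a fold enrichment of 15.1 on chromosome 8, at 20424135 to 20424736, where the nearest protein-coding gene is Gm15319 at 60933 bp. The Utx-cKO and Ezh2-cKO lists held peaks there too, with a fold enrichment of 11.1 in Utx-cKO and 9.98 in Ezh2-cKO.

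Paired peaks were slightly longer in Jmjd3-cKO, and the change lay in the weak peaks. The median length was 1392 bp in Jmjd3-cKO and 1342 bp in wild type, the median log2 ratio of width (Jmjd3-cKO over wild type) was 0.04 with quartiles of −0.19 and 0.30, and 55.2% of pairs were longer in Jmjd3-cKO. A width change was counted from 1.5-fold. By that count 2654 pairs were wider (13% of 20340) and 1908 narrower (9.38%). In the quartile of pairs with the lowest mean rank, 27.9% were wider and 19.6% narrower in Jmjd3-cKO, and in the highest quartile 3.23% were wider and 3.07% narrower. Over a promoter 6.07% of pairs were wider and 4.10% narrower, elsewhere in a gene 18.6% were wider and 13.5% narrower, and outside protein-coding genes 19.8% were wider and 14.6% narrower. The median log2 ratio per autosome ran between 0.0039 on chromosome 13 and 0.06 on chromosome 11, so that the median was above 0 on each of them.

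**Figure D1:**
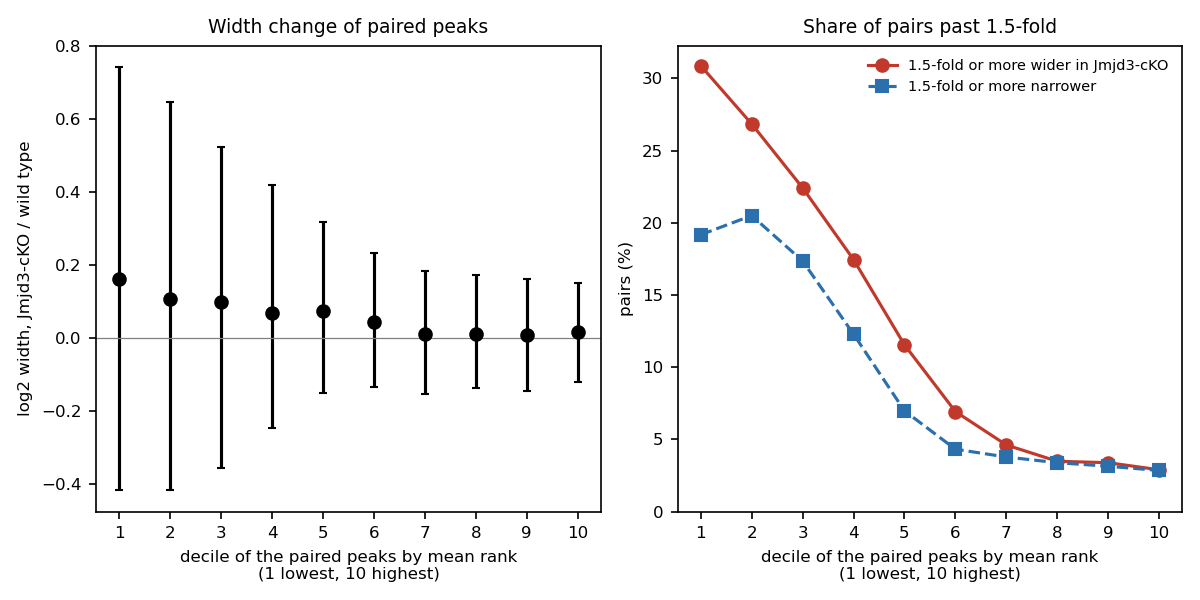
Width change of the 20340 one-to-one peak pairs in deciles by mean rank, 1 library per genotype. On the left, points are medians and bars the quartiles of log2 width, Jmjd3-cKO over wild type. On the right, the shares of pairs at least 1.5-fold wider or narrower in Jmjd3-cKO (percent) are 30.9% and 19.2% in the weakest decile and 2.90% and 2.85% in the strongest.

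At promoters, peaks reached farther into the gene body than upstream, and their edges differed more on that side. Among 8028 pairs over the start of 1 gene, the peak reached 548 bp upstream and 1293 bp downstream of the start in Jmjd3-cKO, against 547 bp upstream and 1283.5 bp downstream in wild type (medians). In the 470 of these that were wider in Jmjd3-cKO, the downstream edge lay a median of 587 bp farther out and the upstream edge 117.5 bp, and in 72.8% of them the downstream change was the greater, beside 64.1% of all 8028 pairs. In the 308 narrower pairs, the downstream edge moved by −608.5 bp and the upstream edge by −175 bp, with the greater change downstream in 65.9%.

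The paired peaks that widened most were near the shortest length called in wild type. Among one-to-one pairs that were the strongest peak of a gene in both lists, the 5 that widened most were those of Sox21, Msx3, Ralyl, Wnt1 and Lgr6. Joined and split peaks do not enter this order. The Sox21 peak had 2227 bp in Jmjd3-cKO and 273 bp in wild type. At Msx3, a homeobox gene, the lengths were 1968 bp in Jmjd3-cKO and 242 bp in wild type, and at Wnt1 they were 1467 bp in Jmjd3-cKO and 251 bp in wild type. The shortest peak in a list has the fragment size, 246 bp in Jmjd3-cKO and 228 bp in wild type, so the wild-type peaks at these genes are near that floor and the ratios depend on whether the flanks passed the authors' threshold. These genes ranked low in both lists, for example Sox21 at the 10.2 percentile in Jmjd3-cKO and 0.33 in wild type, and Wnt1 at 1.96 in Jmjd3-cKO and 2.66 in wild type.

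The 5 of these pairs that narrowed most were Edar, Pnp, Chl1, Parp2 and Aspn. The peak at Edar, the receptor of ectodysplasin in skin appendages, had 295 bp in Jmjd3-cKO and 2707 bp in wild type. At Aspn, which encodes the small matrix proteoglycan asporin of cartilage and periodontal ligament, it had 350 bp in Jmjd3-cKO and 1637 bp in wild type. The ranks of both moved by less than 4 points, with Edar at 10.7 in Jmjd3-cKO and 14.5 in wild type and Aspn at 9.06 in Jmjd3-cKO and 8.98 in wild type. Their widths thus differed far more than their ranks.

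Col2a1, the main fibrillar collagen of cartilage, had the longest wild-type peak that was split in Jmjd3-cKO. In Jmjd3-cKO, 3 peaks with 12545 bp in all lay within a wild-type peak of 16587 bp, and the strongest of them, of 7451 bp, had a fold enrichment of 6.79, against 4.12 for the single wild-type peak. The rank of Col2a1 was 37.2 in Jmjd3-cKO and 19.1 in wild type. Joining ran the other way at Foxc1 and Gmds, where a Jmjd3-cKO peak of 18613 bp spanned 2 wild-type peaks of 17471 bp in all. At Hoxc6 and Hoxc5 a Jmjd3-cKO peak of 15298 bp lay where wild type had peaks of 5575 bp and 10860 bp.

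Most pairs held a similar rank in both lists. Across the 20340 pairs the ranks had a Spearman correlation of 0.91, the lengths of 0.87, and the change in width and the move in rank of 0.10, as descriptions across peaks that share the 2 libraries. A move was counted from 20 percentile points. By that count 1306 pairs were higher in Jmjd3-cKO (6.42%) and 1289 lower (6.34%), with moves between −64.5 and 60.2 points. In the lowest quartile by mean rank 20.2% of pairs were higher and 16.4% lower, and in the highest quartile 0.20% were higher and 0.41% lower. A mean rank near either end limits the move. In the quartile of pairs with the highest wild-type fold enrichment, which limits moves up, 1.83% were lower. On chromosome X the median move of 498 pairs was −3.89 points, whereas autosomes ran between −0.86 on chromosome 3 and 0.48 on chromosome 19. The labels give no sex for the mice, and the part of sex in the X-linked value was not tested.

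Each gene was given its strongest peak within 2 kb of either end, and 13305 genes had one in both lists. Of these, 1129 were higher in Jmjd3-cKO (8.49%) and 974 lower (7.32%), with a median move of 0.51 points. The strongest peaks of the 2 lists overlapped at 97.3% of the genes, at 1092 of the 1129 and at 941 of the 974. Where they did not overlap, a move compares 2 sites. This held for Sh2d3c, Chadl and Anxa4, the 3 largest moves up of all. Sh2d3c had a move of 78.1 points with the 2 kb window, but of 0.35 with 1 kb and 9.84 with 5 kb. Gm29776, the largest move down with −76.5 points, was of the same kind. The genes described next have overlapping peaks.

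**Figure D2:**
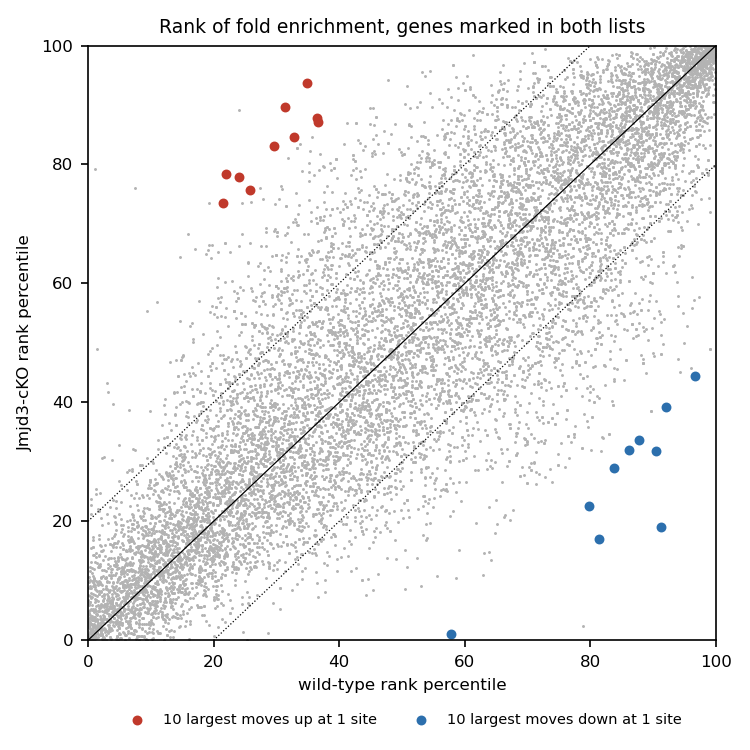
Rank percentile of the strongest peak of each of the 13305 genes marked in both lists, Jmjd3-cKO on the vertical axis and wild type on the horizontal axis. The solid line marks equal ranks and the dotted lines moves of 20 points. Red and blue points are the 10 largest moves up and down at an overlapping site. The cloud is narrow at the upper right, where strong peaks lie. Few weak genes passed 20 points either, with 1.33% higher and 0.63% lower among those with a mean rank under 25.

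The genes that moved up most at 1 site belong to no single family. Pelo had a fold enrichment of 13.8 in Jmjd3-cKO and 5.16 in wild type, at ranks of 89.7 in Jmjd3-cKO and 31.4 in wild type, and its peaks had 2159 bp in Jmjd3-cKO and 2021 bp in wild type. Map1b, a microtubule protein gene, ranked at 83.2 in Jmjd3-cKO and 29.7 in wild type. Itga6, a laminin receptor subunit, ranked at 84.7 in Jmjd3-cKO and 32.9 in wild type, on peaks of 2041 bp in Jmjd3-cKO and 2124 bp in wild type. Peak length moved little at Pelo, Itga6 and Vps13a (ranks 87.1 in Jmjd3-cKO and 36.6 in wild type), which differ in height over input rather than in extent. Glrx2, a mitochondrial glutaredoxin gene, ranked at 77.9 in Jmjd3-cKO and 24.1 in wild type, and Nipa1, a magnesium transporter gene, at 75.7 in Jmjd3-cKO and 25.9 in wild type. At Nipa1 and Rnf150 the peak was shorter in Jmjd3-cKO while the rank was higher, with 1335 bp in Jmjd3-cKO and 2571 bp in wild type at Nipa1. In the Utx-cKO list Pelo ranked at 73.9 and Map1b at 35.2, and in the Ezh2-cKO list Pelo ranked at 56.4 and Map1b at 33.5. Set, a histone chaperone gene with a move of 58.8 points, is uncertain, because the move was −3.79 with a 5 kb window.

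The genes that moved down most were as mixed. Itga8, an integrin subunit gene of mesenchyme, had a fold enrichment of 4.56 in Jmjd3-cKO and 8.93 in wild type, at ranks of 17.1 in Jmjd3-cKO and 81.3 in wild type, on peaks of 627 bp in Jmjd3-cKO and 656 bp in wild type. Psmd9 ranked at 31.8 in Jmjd3-cKO and 90.4 in wild type. Psma3, a subunit of the proteasome core, ranked at 33.7 in Jmjd3-cKO and 87.7 in wild type, but its move of −54.0 was 5.01 when a peak anywhere over the gene counted. Ccndbp1, which encodes a cyclin D binding protein, ranked at 22.6 in Jmjd3-cKO and 79.8 in wild type. Scamp3, a gene of membrane traffic, ranked at 32.0 in Jmjd3-cKO and 86.2 in wild type, Yae1d1 at 29.0 in Jmjd3-cKO and 83.8 in wild type, and the X-linked Armcx3 at 39.2 in Jmjd3-cKO and 92.0 in wild type. At Slc48a1, a haem transporter gene, the peak was 4.14 times as wide in Jmjd3-cKO, with 4867 bp against 1175 bp in wild type, while its rank was 44.4 in Jmjd3-cKO and 96.7 in wild type. Itga8 ranked at 50.3 in Utx-cKO and 69.8 in Ezh2-cKO, between its Jmjd3-cKO and wild-type ranks.

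**Figure D3:**
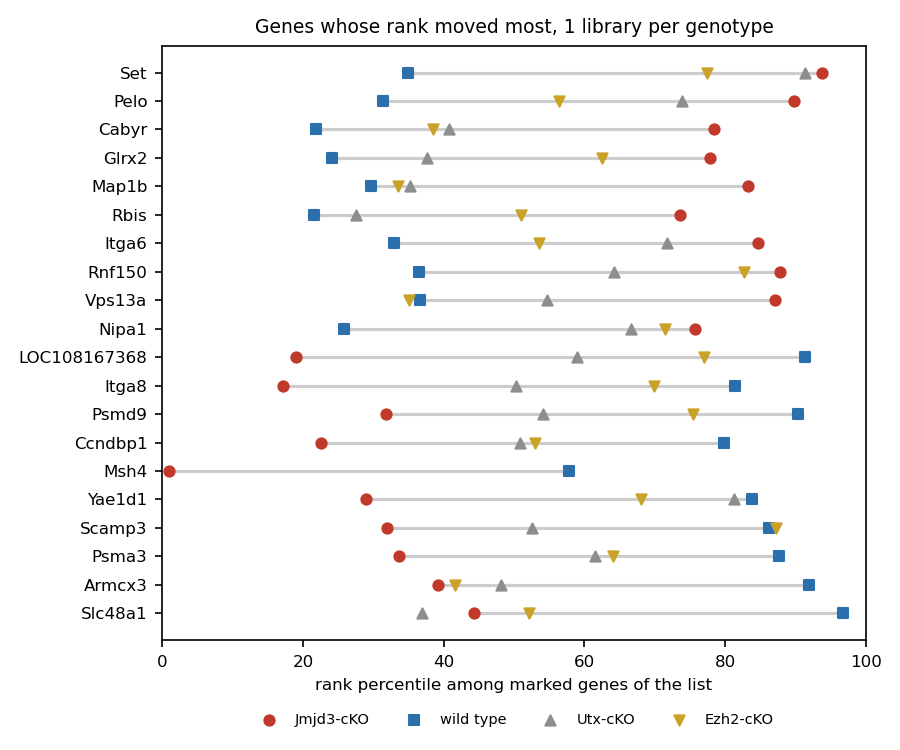
Rank percentile, among the marked genes of each list, of the 10 genes with the largest moves up and the 10 with the largest moves down at an overlapping site, with 1 library per genotype. Red circles are Jmjd3-cKO, blue squares wild type, and grey and yellow triangles the Utx-cKO and Ezh2-cKO lists for orientation, with Msh4 unmarked in both. Grey lines join Jmjd3-cKO and wild type, which lie 72.2 points apart at LOC108167368 and 49.8 points apart at Nipa1.

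The genes of the enzymes that write and erase the mark, Ezh2, Kdm6a and Kdm6b, each moved by less than 20 points. Kdm6b, the gene targeted here, carried a peak in both lists, of 14545 bp in Jmjd3-cKO and 12350 bp in wild type, at ranks of 57.8 in Jmjd3-cKO and 49.7 in wild type. A peak list does not show whether an exon was deleted, so this peak does not check the label. Kdm6a ranked at 93.4 in Jmjd3-cKO and 96.6 in wild type, and Ezh2 at 72.4 in Jmjd3-cKO and 82.0 in wild type. Over the 14 genes of Polycomb repressive complex 2 and the H3K27 demethylases, 13 were marked in Jmjd3-cKO and 14 in wild type, beside 63% and 62.3% over all genes. Of the 13 marked in both, 1 was higher and 1 lower (7.69% each), near the 8.49% and 7.32% over all genes. Phf1, a Polycomb-like accessory gene, was higher (80.3 in Jmjd3-cKO and 54.7 in wild type, at different sites) and the histone-binding subunit Rbbp7, X-linked, lower (61.7 in Jmjd3-cKO and 83.3 in wild type).

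Cartilage genes kept their peaks, and few of them passed 20 points. Of 28 chondrocyte matrix and regulator genes, 25 counted as marked in Jmjd3-cKO and 24 in wild type, with a median move of −3.50 points, 0 higher and 2 lower (8.33%), beside 8.49% higher and 7.32% lower over all genes, which is near the background. The 2 were Matn3, a cartilage matrix protein gene (22.5 in Jmjd3-cKO and 54.9 in wild type), and Cnmd, which encodes the antiangiogenic chondromodulin (20.8 in Jmjd3-cKO and 41.2 in wild type). Chad, a matrix gene of cartilage, was marked in Jmjd3-cKO alone, by a peak of 305 bp. Sox9 ranked at 87.5 in Jmjd3-cKO and 69.1 in wild type on peaks of 8029 bp in Jmjd3-cKO and 7847 bp in wild type. Acan, the main cartilage proteoglycan, ranked at 33.2 in Jmjd3-cKO and 50.9 in wild type. Sox9 and Acan thus moved in opposite directions, each by less than 20 points. Of 28 hypertrophy and osteogenesis genes, 16 counted as marked in Jmjd3-cKO and 18 in wild type, 0 were higher and 2 lower. Those were Ank, a pyrophosphate transporter gene that restrains mineralization (52.8 in Jmjd3-cKO and 95.4 in wild type), and Alpl, the alkaline phosphatase of mineralization (1.31 in Jmjd3-cKO and 24.6 in wild type). Runx2 ranked at 9.03 in Jmjd3-cKO and 18.8 in wild type, Ihh at 15.4 in Jmjd3-cKO and 11.6 in wild type, and Col10a1 had no peak in either list. Cdkn2a, a cell cycle inhibitor locus that is a known target of Polycomb and of Jmjd3, ranked at 50.8 in Jmjd3-cKO and 86.7 in wild type, a move of −36.0 points. It was the 1 of 9 cell cycle inhibitor genes past 20 points.

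Few genes of the signalling lists passed 20 points. The share that was higher in Jmjd3-cKO was 16% in the TGF-beta and BMP list, 4% in the Wnt list and 7.14% in the Hedgehog list. Over all genes it was 8.49%, and the TGF-beta and BMP list alone was above that. Low ranks leave less room to move, and over genes marked in both lists with a mean rank under 25 the share was 1.33%. The Wnt list, with median ranks of 20.9 in Jmjd3-cKO and 13.8 in wild type, was above that share, by 1 gene. Among 36 TGF-beta and BMP ligands and antagonists, 26 were marked in Jmjd3-cKO and 28 in wild type, and of those marked in both 4 were higher and 0 lower. Bmp2, a ligand that promotes cartilage and bone formation, had a fold enrichment of 9.08 in Jmjd3-cKO and 4.69 in wild type, at ranks of 61.2 in Jmjd3-cKO and 25.5 in wild type. Bmp4 ranked at 33.7 in Jmjd3-cKO and 11.1 in wild type, Gdf11 at 68.0 in Jmjd3-cKO and 45.8 in wild type, and Bmp1, a protease that processes procollagen, at 83.7 in Jmjd3-cKO and 59.3 in wild type. Mstn was gained, and 2 genes, Nodal among them, were lost, which is 7.14% of the genes of the list marked in wild type, beside 1.76% over all genes. Among 34 Wnt ligands and antagonists, 28 were marked in Jmjd3-cKO and 26 in wild type, 1 was higher and 0 lower. That was Wnt2, whose peak had 1993 bp in Jmjd3-cKO and 240 bp in wild type, with ranks of 22.1 in Jmjd3-cKO and 1.52 in wild type. The median move of the Wnt list was 5.16 points, beside 0.51 over all genes. In the Hedgehog list, where 14 of 16 genes were marked in each genotype, the peak at the effector gene Gli1 had 2941 bp in Jmjd3-cKO and 446 bp in wild type at ranks of 15.3 in Jmjd3-cKO and 15.9 in wild type.

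The list with the greatest surplus of marked genes in Jmjd3-cKO was that of transcription factors of other lineages. Here 28 of 45 were marked in Jmjd3-cKO (62.2%, 47.6 to 74.9%) and 19 in wild type (42.2%, 29.0 to 56.7%), and the intervals overlap. A gene was called gained when it was marked in Jmjd3-cKO and had no wild-type peak within 5 kb. Over all genes 348 of 7400 that could gain were gained (4.7%), and in this list 8 of 21. They were Pax8, Nkx2-1, Sox2, Sox3, Sox10, Hand1, Olig1 and Cdx2, regulators of kidney, lung, neural, heart and gut lineages, with fold enrichments between 2.41 at Cdx2 and 3.64 at Pax8. These are weak peaks of their list, at percentiles of 0.33 to 10.2. Nkx6-2 was lost. Among the 17 genes of the list with overlapping peaks, 5 were wider in Jmjd3-cKO and 0 narrower, namely Sox21, Nkx2-2, Tbx1, Hand2 and Isl1. Over all 12946 such genes 8.01% were wider and 4.94% narrower, and over the 2751 with a mean rank under 25 the shares were 17.9% and 7.85%. Nkx6-1, a regulator of pancreatic and motor neuron identity, stood apart in strength, with a fold enrichment of 9.66 in Jmjd3-cKO and 4.14 in wild type and ranks of 66.5 in Jmjd3-cKO and 19.3 in wild type.

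**Figure D4:**
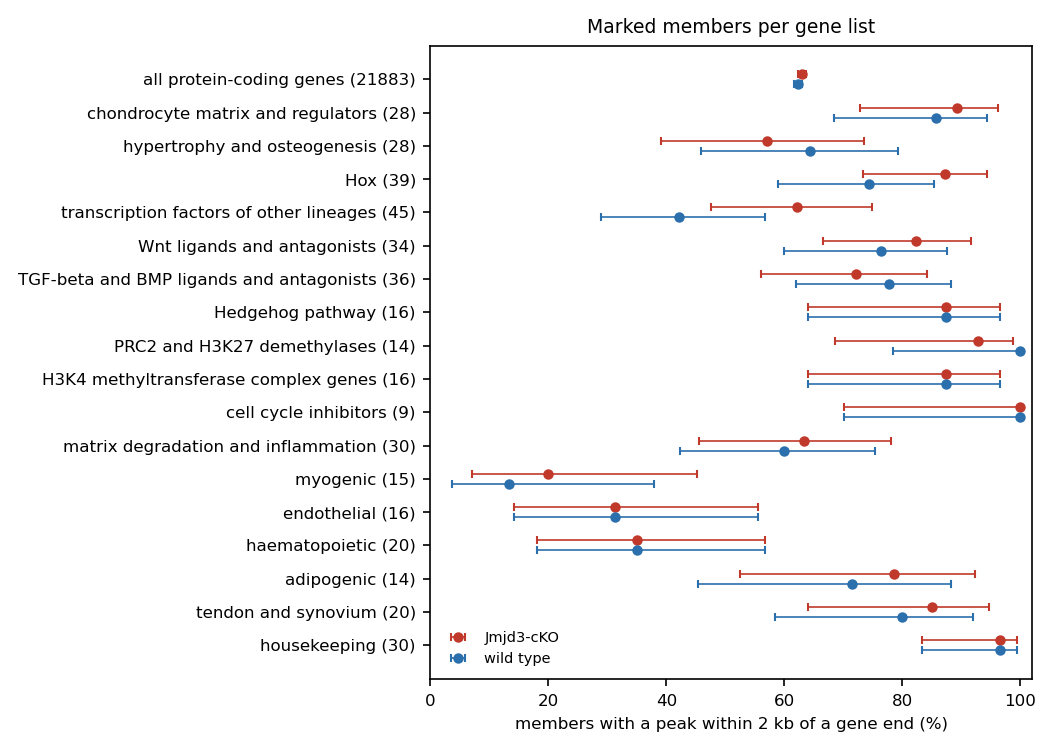
Percent of the members of each gene list with a peak within 2 kb of a gene end, for Jmjd3-cKO (red, upper point) and wild type (blue, lower point), with the number of genes in parentheses. Bars are 95% Wilson intervals for counting error in 1 library per genotype. The intervals of both genotypes overlap in each list, and the transcription factors of other lineages are 62.2% in Jmjd3-cKO and 42.2% in wild type.

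Hox genes, which set position along the body axis, differed by cluster. In the Hoxb cluster peaks marked 7 of 10 genes in Jmjd3-cKO and 2 of 10 in wild type, beside 63% and 62.3% over all genes. Of the 6 that could gain, 4 did, beside 4.7% over all genes. These were Hoxb13, Hoxb8, Hoxb7 and Hoxb4, on 3 peaks, with fold enrichments between 3.0 and 3.54 and ranks of 4.85 to 9.33. Hoxb2, 1 of the 2 marked in wild type, was lost, beside 1.76% over all genes. It had a wild-type fold enrichment of 3.11 at a rank of 8.71. From 5 kb before to 5 kb after the cluster, 8 Jmjd3-cKO peaks covered 6.90 kb, against 5 wild-type peaks over 2.28 kb. In the Hoxd cluster, the 6 genes with overlapping peaks had a higher rank in Jmjd3-cKO, by 1.06 to 15.6 points, though none passed 20. There 12 Jmjd3-cKO peaks covered 22.1 kb and 12 wild-type peaks 13.3 kb, and the peak at Hoxd9 had 4767 bp in Jmjd3-cKO and 2097 bp in wild type. The Hoxa and Hoxc clusters hold the long peaks, and the longest peak of each changed little in length. Coverage of these clusters as a whole was not computed. The peak over Hoxa7 to Hoxa11 had 21643 bp in Jmjd3-cKO and 21937 bp in wild type, and that over Hoxc8 to Hoxc10 had 33530 bp in Jmjd3-cKO and 34271 bp in wild type. Hoxa4 was higher (96.0 in Jmjd3-cKO and 73.3 in wild type) and Hoxc6 lower (25.2 in Jmjd3-cKO and 57.2 in wild type), Hoxc6 being where wild-type peaks were joined. Neighbouring Hox genes share peaks and are not independent.

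**Figure D5:**
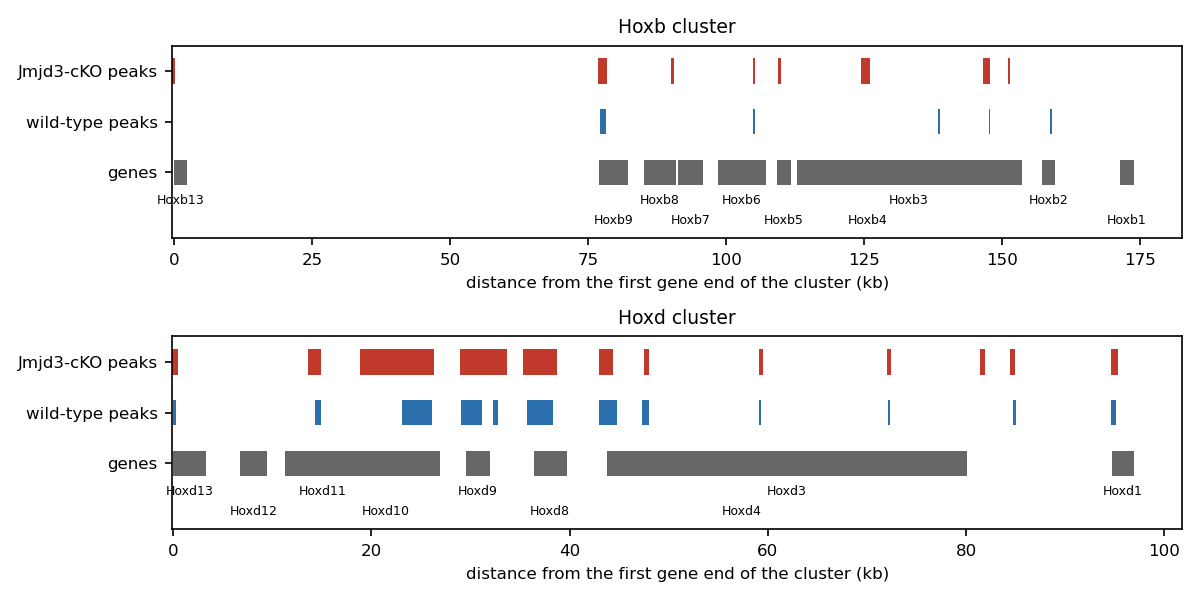
Peaks along the Hoxb and Hoxd clusters, with Jmjd3-cKO peaks (red) above wild-type peaks (blue) and the genes in grey, against the distance in kb from the first gene end of the cluster. The weak Hoxb peaks number 8 in Jmjd3-cKO and 5 in wild type, and the Hoxd peaks cover 22.1 kb in Jmjd3-cKO and 13.3 kb in wild type.

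Genes that gained or lost a peak did so on weak and short peaks. The 348 gained genes rest on 323 peaks, with a median fold enrichment of 2.90, a median rank of 4.07 and a median length of 447 bp. The 240 lost genes, 1.76% of the 13635 marked in wild type, rest on 232 peaks with medians of 2.81 for fold enrichment, 5.20 for rank and 456 bp for length. A peak near the calling threshold can be in 1 list and not in the other with little change in signal. The strongest gained genes were Pik3c3 and Gm38699, with fold enrichments of 5.95 and 5.10 at ranks of 29.3 and 21.6. Asphd1 had a fold enrichment of 4.65, and H2-Ab1, a class II antigen presentation gene, 4.60 over a peak of 1878 bp. Aldh1a2 had 4.08, with its peak over the printed CG-rich promoter. The strongest lost genes ranked higher in their own list. Gm13271, Gm40469, Zfp33b and Gm3636 had wild-type fold enrichments of 8.65, 8.56, 7.19 and 6.42, at ranks of 78.5, 77.7, 61.1 and 50.1, and no Jmjd3-cKO peak within 5 kb. Predicted genes with Gm symbols made up 23 of the 240 lost genes (9.58%) and 10 of the 348 gained (2.87%). Of the 202 such genes marked in wild type 11.4% were lost, beside 1.76% over all genes, and of the 1088 that could gain a peak 0.92% gained one, beside 4.7%.

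The promoters of these genes differed in base composition. Promoter sequence was at hand for 17491 of the 21883 genes. An observed to expected CpG ratio of 0.6 or more was found at 35.1% of gained and 18.5% of lost promoters. The share was 73.2% for genes marked in both lists, 7.85% for those marked in neither and 48.4% for all. Gained and lost promoters thus lay between the genes marked in both lists and those marked in neither. The GC box GGGCGG, searched on both strands, was in 46.6% of gained, 28.6% of lost and 46.3% of all promoters. The ETS-type motif CCGGAAG was in 5.58% of gained, 3.17% of lost and 11.9% of all, and TATAAA in 9.56%, 14.8% and 13.3%. Genes that moved in rank had a ratio of 0.6 or more at 78.2% of promoters of those higher and 77.4% of those lower in Jmjd3-cKO. In those higher, CCGGAAG was in 19.8% (17.4 to 22.6%) and GGGCGG in 68.6% (65.5 to 71.6%). In those lower, CCGGAAG was in 23.5% (20.7 to 26.6%) and GGGCGG in 61.0% (57.6 to 64.4%), beside 17.6% (16.9 to 18.3%) and 66.2% (65.3 to 67.1%) of those marked in both lists.

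Neighbouring genes that gained a peak formed 15 clusters and those that lost one formed 6, a cluster being at least 3 such genes on at least 2 peaks with gaps of at most 500 kb. The gained cluster with the most genes, 13 genes of the protocadherin clusters on chromosome 18, rests on 2 peaks, since the Pcdhg genes share a 3′ end where a peak of 724 bp with a fold enrichment of 2.66 lay. The next had 5 genes on chromosome 7, Zfp941, Scgb1c1, Pkp3, Sigirr and Ano9, on 4 peaks of 2.52 to 3.18. On chromosome 4, Tmem54, C77080, Zbtb8b and Ptp4a2 were gained on 4 peaks, and the fourth cluster was that of the Hoxb genes. Gdf2, A630023A22Rik and Anxa8 on chromosome 14, and Apol8, Pvalb and Tmprss6 on chromosome 15, followed with 3 genes each. Each of these clusters holds genes that did not gain a peak between the ones that did. The chromosome 7 cluster spans 20 protein-coding genes, its 5 gained members included. Other lists, which are set against the same wild-type list, also hold peaks at these genes. The Utx-cKO library titles share their prefix with the Jmjd3-cKO titles, and the Ezh2-cKO titles do not. Batch and genotype therefore cannot be told apart among these lists either. The Utx-cKO list is also the longest, with 49405 peaks. Within 2 kb of Hoxb8 and Hoxb7 the fold enrichment was 3.63 in Utx-cKO and 3.72 in Ezh2-cKO, and at Hoxb13 it was 3.22 and at Hoxb4 3.51 in Utx-cKO, with no Ezh2-cKO peak at either. The 5 genes on chromosome 7 had peaks in both, of 2.98 to 3.66 in Utx-cKO and 2.80 to 3.41 in Ezh2-cKO. The number of gained clusters ran between 4 and 61 over the alternatives.

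Of the 6 lost clusters, 3 lie among genes of repeated families and 1 on chromosome Y, and those of Rgsl1, Teddm2 and Zfp648 on chromosome 1 and of Slc9c1, Gcsam and BC016579 on chromosome 16 rest on 2 peaks each. On chromosome 14 between 6583962 and 7658936, Gm33933, Gm3636, Gm3667, Gm10406, Gm3739 and Gm38418 lost 6 peaks, with wild-type fold enrichments of 2.80 to 6.42. On chromosome 5, Zfp33b, Zfp951 and Abcg3 lost 3 peaks of 7.19, 3.57 and 2.75, all of which the Utx-cKO and Ezh2-cKO lists hold, at Zfp33b with 9.05 in Utx-cKO and 8.19 in Ezh2-cKO. On chromosome 4, Gm13271, Gm13286 and Gm13283, near the type I interferon genes, lost 2 peaks. How reads that match several places were treated is not given in the sources used here, so values at near-identical genes are uncertain. The Y-linked Kdm5d, Eif2s3y, Uty and Ddx3y had wild-type fold enrichments of 4.41, 2.80, 3.30 and 3.66 and no peak in Jmjd3-cKO, nor in Utx-cKO or Ezh2-cKO. In the first 5 Mb of chromosome Y the Jmjd3-cKO list held 0 peaks and the wild-type list 4. A peak at an end of Xist was present in both, with fold enrichments of 4.80 in Jmjd3-cKO and 4.02 in wild type. The labels give no sex, so that a difference in the sex of the mice and the genotype cannot be told apart at these 4 genes.

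The gene families counted here differed in how many members passed 20 points. Of 330 zinc finger genes with Zfp symbols marked in both lists, 25 were higher in Jmjd3-cKO (7.58%) and 47 lower (14.2%), beside 8.49% and 7.32% over all genes. Ribosomal protein genes had 5 higher and 10 lower of 91. Solute carrier genes were close to the shares over all genes, with 20 higher (8.44%) and 16 lower (6.75%) of 237. Of 19 cytochrome P450 genes 1 was higher and 2 lower, and of 10 serpin genes 1 was higher and 1 lower. Of 1110 olfactory receptor genes 2 counted as marked in Jmjd3-cKO and 7 in wild type, beside 63% and 62.3% over all genes. Of the 7, 5 were lost (35.9 to 91.8%), beside 1.76% over all genes marked in wild type. No share over genes of similar wild-type rank was taken, so this is not read as a trait of the family. Genes of the major histocompatibility complex were marked in 15 of 38 cases in each list, and of the 14 marked in both 2 were higher and 0 lower, with a median move of 7.36 points.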

How the data were processed

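Per the file headers, the authors used MACS 2.1.2 in broad mode on paired-end fragments, with the input of each genotype as the control of its own ChIP library, a q of 0.05, a broad cutoff of 0.05, at most 1 duplicate per position, and the larger library of each pair scaled down to the other. FastQC 0.11.5, deepTools 2.4.1, HOMER 4.10, ChIPseeker, MACS2 and Bowtie2 stand in the submitters' processing notes. For the Bowtie2 version and the genome build, the entry is "not given in the sources used here". The deposited lists hold, per the file headers, a pileup (coverage signal) for each peak, a −log10 q and a −log10 p, a fold enrichment, which is a ratio to the local input, and a length. Pileup stayed within its list, since the scaling is separate for each library pair.

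Peaks were paired where they overlapped by 1 bp, with one-to-one pairs as the unit of width and rank. The gene table was that of RefSeq for GRCm38.p6 (21883 protein-coding genes), which holds no strand, and 17491 had a promoter sequence with strand. A gene took the strongest peak within 2 kb of either end, and a peak at a 3′ end counts too. Exons and introns were not told apart. The 17 gene lists (410 entries, all matched by symbol), the members and the rules were chosen with earlier results of these data known. The rule for named genes took the 10 largest rank moves, the 10 strongest gained and lost genes, the 5 largest width changes per direction, the members of up to 6 clusters per direction, up to 4 members per list and a fixed set of Polycomb, cartilage and Hox genes. The list of moves at an overlapping site, and further genes named within lists or Hox clusters, were added after the values were seen. With 1 library per genotype no test was made. Shares carry 95% Wilson intervals for counting error only. On simulated peaks 100% of 548 genes given a peak were found and 100% of 55 whose peak was dropped were called lost. Computation ran in Python 3.11.15 with pandas 2.3.3, numpy 2.4.6, matplotlib 3.10.9 and scipy 1.17.1. The 6 Jmjd3-cKO and 7 wild-type peaks on unplaced scaffolds enter no paired or gene-based result. Values of a few list members are not reported here.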

Additional observations from a re-analysis of the deposited data

How the results depend on the processing

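Of 19 alternatives, 16 were planned, and peaks at transcription starts, a minimum length of the Jmjd3-cKO fragment size and genes with overlapping peaks were chosen after seeing the data. No paired analysis was possible because each genotype has 1 library; for the same reason no library could be left out. At q of 0.001 or less, 1425 pairs were wider and 935 narrower in Jmjd3-cKO, 636 lower in rank, and 3 clusters lost peaks. At fold enrichment of 4 or more, a value that means a different rank in each list, 631 pairs were wider and 471 narrower (median log2 0.0180), 775 pairs lower, 1700 genes higher, 880 genes gained and 158 lost, with 61 gained and 3 lost clusters. A 2-fold limit left 1223 wider and 830 narrower pairs. The median log2 width was 0.0316 with peaks within 3 kb merged and 0.0464 over every overlapping pair. Ranked by −log10 p, 698 pairs and 375 genes were higher and 330 genes lower. From 10 points, 3463 pairs and 2884 genes were higher and 3704 pairs and 2571 genes lower. Clusters numbered 9 gained and 3 lost at 1 kb, 25 and 16 at 5 kb (with 371 lost genes), 4 and 2 for 4 genes, and 9 and 23 gained for joins within 250 kb and 1 Mb. Transcription starts gave 4 gained clusters. In direction, 10 of 388 rank moves were counted as turned, at Msh4, Set, Tctex1d4 and Psma3. Msh4 had 11.8 with merged peaks and 11.7 at 5 kb. Set had −3.77 merged, −3.79 at 5 kb, −3.74 anywhere over the gene and −3.79 at transcription starts. Tctex1d4 had −2.02 at 1 kb and −2.15 at transcription starts. Psma3 had 5.01 anywhere over the gene and 4.85 at transcription starts. A main move under 20 points could not be counted as turned. The count therefore does not show whether Sox9, Col2a1, Acan, Kdm6b, Kdm6a, Ezh2, Runx2 and Ihh kept their direction. Of 153 list differences 2 turned, tendon and synovium (−10.0 points at q of 0.001 or less) and TGF-beta and BMP (11.1 at fold enrichment of 4 or more). All 36 widths of named peaks that could still be compared kept their direction. A width dropped out where its gene no longer had overlapping peaks, and with autosomes only the widths could not change. Apart from fewer peaks or genes entering, the cause was not tested.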
